A study of Mus musculus with 24 samples.

Results

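The genes of 9 cathepsins (Ctsa, Ctsb, Ctsc, Ctsd, Ctse, Ctsh, Ctsl, Ctss and Ctsz) and of cystatin C (Cst3), the secreted inhibitor of part of them, were followed through mouse tissue-resident macrophages (TRMs) taken directly from the animal or kept in culture. They were picked as a named gene family, with earlier results of these data known, and are 10 of the 45706 gene identifiers in the count table, of which 29068 had at least 1 read. RNA-seq counts were available for 24 libraries in 8 groups of 3. Microglia of the brain (MG), Kupffer cells of the liver (KCs), peritoneal macrophages (PMs) and alveolar macrophages of the lung (AMs) were sorted by flow cytometry from female C57BL/6J mice of 8 to 12 weeks (ex vivo), with no treatment or transgene. Their counterparts, called MG-, KC-, PM- and AM-like cells (MG-LCs, KC-LCs, PM-LCs and AM-LCs, together TRM-LCs), were grown from cell suspensions of the same organs for 14 days in flasks coated with polyethylenimine (in vitro) and were not sorted before RNA extraction. All flasks held 10% fetal calf serum. Macrophage colony-stimulating factor (M-CSF) was added at 20 ng/mL to MG-LCs, KC-LCs and PM-LCs, interleukin-34 at 20 ng/mL to MG-LCs only, while AM-LCs alone received GM-CSF, the colony-stimulating factor for granulocytes and macrophages, at 20 ng/mL. The first 3 cultures were kept at 3% oxygen with added glucose, and AM-LCs at atmospheric oxygen without added glucose, so that for AM-LCs the growth factor, the oxygen level, the glucose and the tissue of origin cannot be told apart. A flask was seeded from 3 mice, or from 1 mouse for KC-LCs, and the labels do not say which animals or flasks the 3 libraries of a group came from, so the tests measure the spread between these libraries.

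Cathepsins are the main proteases of the lysosome. Most are made as inactive proenzymes, tagged with mannose 6-phosphate, carried to the acidic compartment and cleaved there to the active form. They fall into 3 classes by the residue that does the cutting: Ctsd and Ctse are aspartic proteases, Ctsa is a serine carboxypeptidase, and Ctsb, Ctsc, Ctsh, Ctsl, Ctss and Ctsz are cysteine proteases. Cystatin C is secreted and blocks papain-type cysteine proteases by occupying their active site, and does not inhibit the aspartic or the serine class. Macrophages are rich in cathepsins, which digest what they engulf and trim antigens and the invariant chain for presentation by MHC class II.

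The libraries held 29569486 to 47105111 reads on genes, with a median of 35965750, so that 3 reads corresponded to 0.0661 to 0.115 CPM, the reads of a gene scaled to a common library size with edgeR's TMM factors. The 6 general macrophage markers had reads in all 8 groups, and each sorted population carried its own tissue markers (summed level 17330 to 18060 CPM in MG, 14660 to 27560 in KCs, 22110 to 24370 in PMs and 20910 to 23780 in AMs). In culture the summed levels of those lists were 281 to 1234 CPM in MG-LCs, 29.3 to 111 in KC-LCs, 80.9 to 154 in PM-LCs and 2826 to 10220 in AM-LCs. The Kupffer list was lower in KC-LCs than in PM-LCs (158 to 844 CPM), so the tissue label of KC-LCs is not borne out by these 6 markers. The labels of MG-LCs and PM-LCs were borne out in part. MG-LC library 3 held 2236 CPM of the Kupffer list against 1234 of the microglia list. The microglia sum of MG-LC library 1 lay within those of KC-LCs (233.5 to 296 CPM), and those of libraries 2 and 3 lay above. PM-LCs held 775 to 1543 CPM of the alveolar list, but more of their own list than the other cultures (at most 41.1 CPM). One sorted and one cultured library stood apart. In KC library 1 the Kupffer markers summed to 14660 CPM against 26660 and 27560 in the other 2. Its 5 dendritic cell markers summed to 579 CPM against 63.1 and 84.5. It was also highest for B cell (340 against 128 and 211 CPM) and neutrophil markers (128 against 90.8 and 1.74). The same held for hepatocyte (212.5 against 94.7 and 110 CPM) and fibroblast markers (23.8 against 3.63 and 10.7). Endothelial markers were lowest there (398 against 718 and 836.5 CPM). MG-LC library 1 held 30980 CPM of fibroblast and mesothelial markers against 7.39 and 1012, and 2546 CPM of macrophage markers against 8064 and 8934. Over the MG-LC libraries together 7 of the 8 fibroblast and mesothelial markers had a read, all but Upk3b. Sorted MG held 0.167 to 0.271 CPM of the same fibroblast markers. Lower sums of the fibroblast list were found in PM-LC library 2 (2209 CPM against 22.9 and 366) and AM-LC library 3 (1668 CPM against 17.1 and 182), where sorted PMs held at most 12.8 CPM and sorted AMs at most 0.658. In bulk RNA, fewer cells of a type and less RNA per cell cannot be told apart.

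The promoters of Ctsd, Ctsa, Ctsl and Ctsc are shown as examples that hold 1 of the motifs searched. They were picked with the changes of these genes known, and no relation between motif and change was tested. RefSeq start sites gave 8 promoter sequences for 7 of the 10 genes, each running from 250 bases before the start site to the first 50 bases of the transcript (GRCm38.p6, 5′ to 3′ on the gene's strand). Capitals mark the motif. CACGTG is the core of the element bound by the lysosomal regulators TFEB, TFE3 and MITF, TCACGTGA is an extended form that contains it, and GAGGAAGT, in capitals on its reverse strand in Ctsc, is a site of the type bound by the macrophage factor PU.1. All 3 motifs were searched on both strands.
Ctsd, chr7:142387778-142388077, minus strand: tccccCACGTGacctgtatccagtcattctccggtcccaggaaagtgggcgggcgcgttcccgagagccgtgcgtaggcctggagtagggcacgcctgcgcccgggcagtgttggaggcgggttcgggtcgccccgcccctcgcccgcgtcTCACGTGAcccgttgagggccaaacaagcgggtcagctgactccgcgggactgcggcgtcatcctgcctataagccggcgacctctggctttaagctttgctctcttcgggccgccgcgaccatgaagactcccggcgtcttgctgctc
Ctsa (second start site), chr2:164833523-164833822, plus strand: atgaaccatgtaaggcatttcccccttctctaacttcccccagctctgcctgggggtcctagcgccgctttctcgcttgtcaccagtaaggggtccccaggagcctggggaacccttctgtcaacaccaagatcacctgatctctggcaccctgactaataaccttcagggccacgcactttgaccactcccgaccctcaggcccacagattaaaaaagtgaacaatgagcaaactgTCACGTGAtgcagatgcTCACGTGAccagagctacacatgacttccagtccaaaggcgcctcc
Ctsl, chr13:64370471-64370770, minus strand: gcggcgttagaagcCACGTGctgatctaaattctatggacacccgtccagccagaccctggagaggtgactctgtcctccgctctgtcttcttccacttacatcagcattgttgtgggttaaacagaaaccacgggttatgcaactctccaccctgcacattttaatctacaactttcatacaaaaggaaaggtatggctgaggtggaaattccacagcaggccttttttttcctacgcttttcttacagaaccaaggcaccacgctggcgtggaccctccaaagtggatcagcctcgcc
Ctsc, chr7:88277835-88278134, plus strand: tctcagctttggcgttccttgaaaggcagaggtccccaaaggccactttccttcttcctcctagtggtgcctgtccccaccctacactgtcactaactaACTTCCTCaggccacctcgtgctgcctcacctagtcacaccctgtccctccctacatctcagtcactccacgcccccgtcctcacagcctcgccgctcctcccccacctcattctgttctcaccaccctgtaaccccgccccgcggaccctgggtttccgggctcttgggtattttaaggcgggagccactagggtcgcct
CACGTG stood in 3 of the 8 promoters, against 7.15% of all 32851 RefSeq promoters of this length. In Ctsd it began 245 and 98 bases before the start site, in Ctsa 12 bases before it and at base 6 from it, and in Ctsl 236 bases before it. The extended form TCACGTGA occurred in 2 of 8, Ctsa and Ctsd, against 0.974% of all promoters. GAGGAAGT was present in 2 of 8, beginning 151 bases before the start of Ctsc and 2 bases before that of Ctss, against 3.2% of all promoters. These matches are letters in a window and were not measured as bound sites. Ctsd and Ctsl, with CACGTG, rose in KCs, PMs and AMs, and Ctsa rose in PMs and AMs. Of the genes without it, Ctsz rose in KCs, PMs and AMs, and Ctss in PMs. Cst3 rose in AMs and fell in MG and PMs, and Ctsc fell in KCs, PMs and AMs. Ctsb, Ctse and Ctsh had no entry in the promoter table.

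The first comparison asked how much of the macrophage transcriptome these 10 genes occupied before and after culture. In sorted MG they took 5.57%, 5.75% and 5.80% of all reads. Sorted KCs gave 2.88%, 4.04% and 3.70%, and sorted AMs 3.23%, 3.09% and 3.01%. Sorted PMs were lowest with 1.80%, 1.78% and 1.90%. Among cultures the share was 8.90%, 8.88% and 8.37% in PM-LCs, 7.82%, 8.84% and 7.72% in AM-LCs, 6.62%, 7.25% and 7.28% in KC-LCs, and 3.58%, 6.96% and 7.92% in MG-LCs. Thus PM-LCs had 4.77 times the share of sorted PMs, AM-LCs 2.61 times that of AMs and KC-LCs 1.99 times that of KCs, with no overlap of libraries in these 3 pairs. Each of these 3 differences had p = 0.1 in the exact two-sided permutation test, which is the smallest p that 3 against 3 libraries allow. Between MG and MG-LCs the mean share differed by 0.445 percentage points with overlapping libraries (exact permutation p = 0.8). Without MG-LC library 1 this difference was 1.73 percentage points, and without MG-LC library 3 it turned to -0.438.

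**Figure D1:**
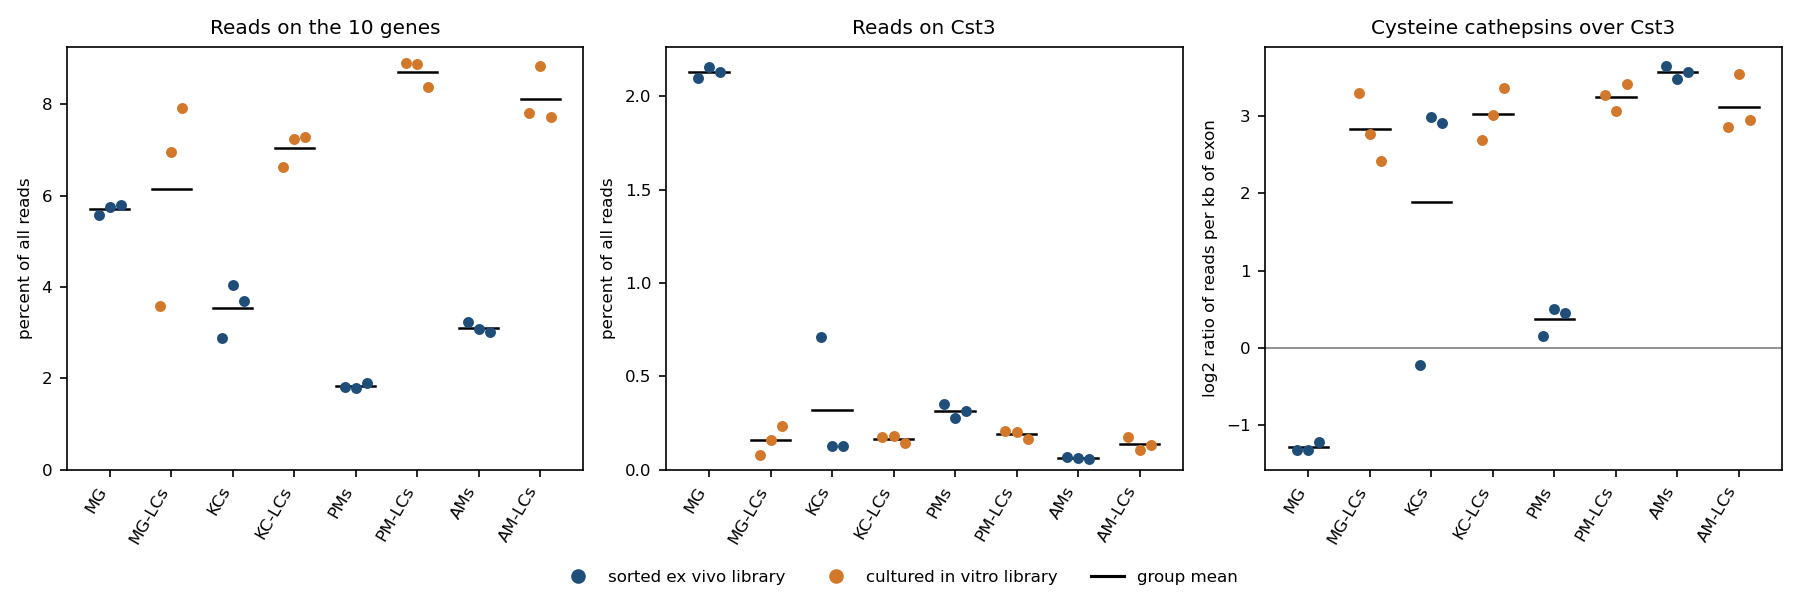
Percent of all reads on the 10 genes (left), percent of all reads on Cst3 (middle), and the log2 ratio of reads per kilobase of the 6 cysteine cathepsins over Cst3 (right), 1 point per library in 8 groups of 3. The 10 genes take 8.37% to 8.90% of the reads in PM-LCs and 1.78% to 1.90% in PMs, and Cst3 is near 2.13% in sorted MG alone.

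The make-up of this share differed between sorted MG and the rest. In MG the most read gene of the whole transcriptome was Cst3 in all 3 libraries, with Ctsd in second place in all 3, and Cst3 alone took 2.13% of reads (SD 0.0311, n = 3). In culture Ctsd ranked first in all 3 PM-LC libraries, first, second and first in AM-LCs, at places 1, 3 and 2 in KC-LCs, and at places 5, 1 and 2 in MG-LCs. Ctsb and Ctsd together held 41.2% of the reads on the 10 genes in MG and 77.5% in MG-LCs, 53.6% and 80.6% in KCs and KC-LCs, 52.2% and 76.1% in PMs and PM-LCs, and 60.7% and 80.3% in AMs and AM-LCs.

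The culture effect was tested for every gene within each population (edgeR quasi-likelihood, in vitro against ex vivo, called at an adjusted p below 0.05 over all genes tested). All 10 genes passed the filter on low counts in all 4 populations, Ctse in AMs only through the cultured group. In PMs 6 of the 10 genes rose and 2 fell, where 16.8% of the 13581 genes tested rose and 12.1% fell. In AMs 7 rose and 1 fell, against 25.9% and 22.9% of 13196 genes, and 1 of the 7 was Ctse, for which the filter allowed no other direction, which leaves 6. In KCs 3 rose and 1 fell, against 14.4% and 19.4% of 13629 genes. In MG 1 rose and 1 fell, against 25.2% and 21.2% of 14416 genes, so the count in MG was below the background in both directions. The median log2 change of the 10 genes was 1.503 in PMs, 1.39 in AMs, 0.70 in KCs and 0.46 in MG, beside medians of all genes tested between -0.01 and 0.04. Without MG-LC library 1, 4 genes rose in MG (Ctsa, Ctsb, Ctsd and Ctsl) and Cst3 fell. Without KC library 1 the same 4 genes were called in KCs, without PM-LC library 2 the same 8 in PMs, and without AM-LC library 3 the same 8 in AMs.

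**Figure D2:**
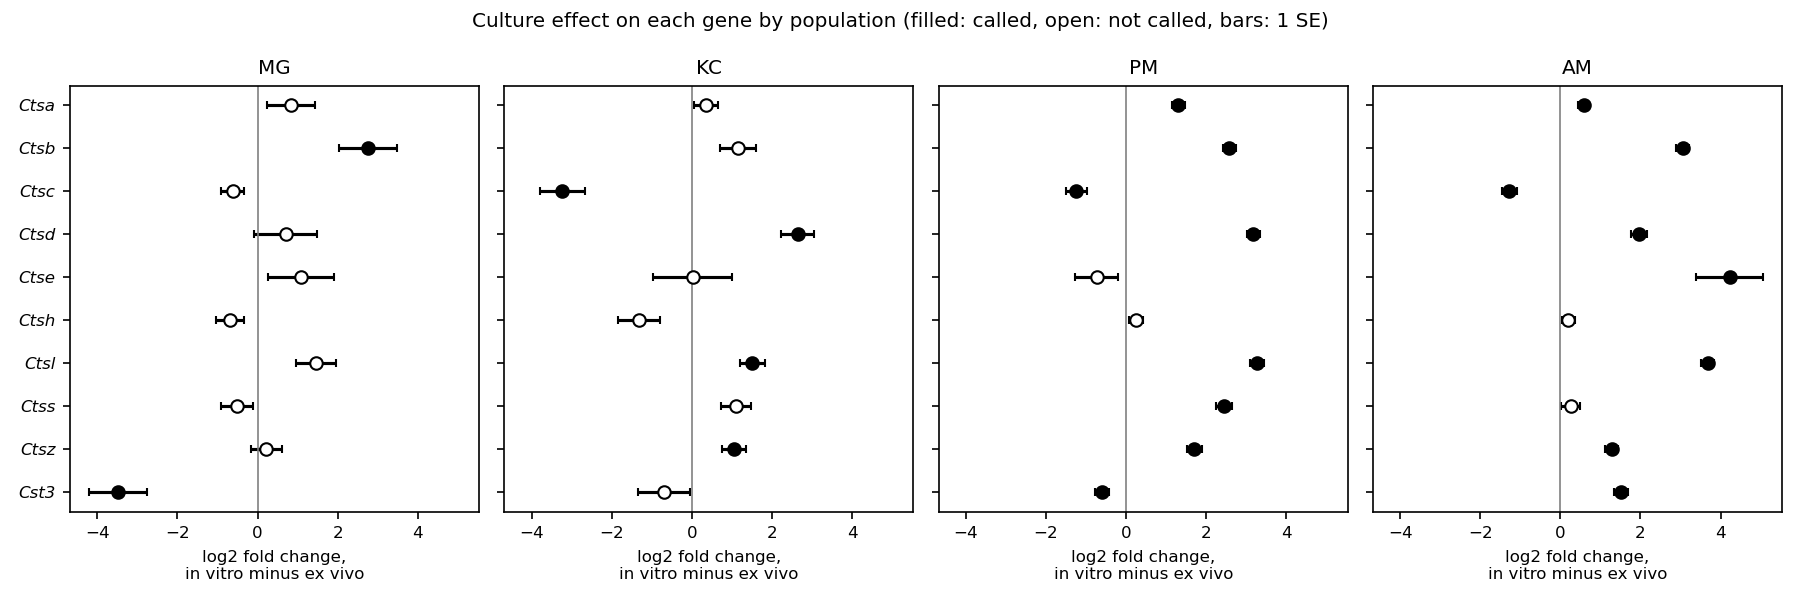
Log2 change in vitro over ex vivo of each of the 10 genes with 1 standard error, in 4 panels for MG, KC, PM and AM, where filled points are called at an adjusted p below 0.05 (edgeR). Points to the right of 0 are higher in culture: 7 filled points lie there in AM, 6 in PM, 3 in KC and 1 in MG.

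Ctsd (ENSMUSG00000007891, chr7:142375911-142388038, minus strand, GRCm38), the main aspartic protease of lysosomes, was the most abundant cathepsin per length in 7 of the 8 groups, the exception being sorted KCs. It stood at 4894, 5378 and 5251 CPM in sorted PMs and at 45510, 48040 and 46760 CPM in PM-LCs. In KCs the libraries gave 3587, 5965 and 4979 CPM, and KC-LCs 28330, 31920 and 32390. Sorted AMs had 15310, 15850 and 15120 CPM and AM-LCs 51440, 74520 and 53540. In these 3 populations the cultured libraries lay above all sorted ones. Ctsd rose 9.04-fold in PMs (log2 3.18 ± 0.16 SE, edgeR adjusted p = 3.55e-05), 6.24-fold in KCs (2.64 ± 0.41, adjusted p = 0.00339) and 3.90-fold in AMs (1.96 ± 0.19, adjusted p = 0.00032). Sorted MG started high at 16050, 16650 and 16110 CPM, and MG-LCs overlapped them with 11630, 31520 and 34420 (log2 0.71 ± 0.79, edgeR adjusted p = 0.478). The lowest of these was MG-LC library 1, without which the change in MG was 1.07 (adjusted p = 0.00957). In order of mean level AM-LCs came first and PM-LCs second, each apart from the next group, followed by KC-LCs, MG-LCs and MG, whose neighbours overlapped, then AMs, with PMs and KCs last and overlapping. Exons of Ctsd share 808 bases with the protein-coding gene Gm49369 on the same strand, which has no row in the count table.

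Ctse (ENSMUSG00000004552, chr1:131638306-131675505), an aspartic protease better known from the stomach and from antigen-presenting cells, was low throughout, at no more than 6.69 CPM in any library. In sorted AMs it was near the detection limit. Its levels were 0.0598, 0.0256 and 0.249 CPM in sorted AMs, from 2, 1 and 10 reads, and 1.93, 3.02 and 1.58 CPM in AM-LCs, from 59, 79 and 44 reads. The groups did not overlap, and the difference was called (log2 4.23 ± 0.84, edgeR adjusted p = 0.0055). Elsewhere the 3 comparisons missed the threshold (adjusted p = 0.308 in MG, 0.335 in PMs and 0.991 in KCs). KC library 1 held 6.69 CPM against 0.831 and 0.542 in KC libraries 2 and 3, and without it the log2 change in KCs moved from 0.02 to 2.00 (adjusted p = 0.0594).

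Ctsb (ENSMUSG00000021939, chr14:63122462-63145923, plus strand), a cysteine protease with both endopeptidase and peptidyl-dipeptidase activity, had overlapping levels in neighbouring cultures from unequal starting points. Sorted AMs had 2798, 2529 and 2365 CPM and AM-LCs 21350, 23610 and 18770. PMs had 4460, 5219 and 5222 CPM, and PM-LCs 32110, 27280 and 29480. MG had 3169, 3199 and 3407 CPM, and MG-LCs 9925, 25910 and 28440. No cultured library of these 3 populations fell within the sorted range, and Ctsb rose 8.31-fold in AMs (log2 3.06 ± 0.16, edgeR adjusted p = 4.7e-05), 5.96-fold in PMs (2.58 ± 0.17, adjusted p = 9.38e-05) and 6.77-fold in MG (2.76 ± 0.72, adjusted p = 0.0229). The call in MG was lost when any 1 sorted MG library was left out (adjusted p = 0.148 to 0.162), with a log2 change of at least 2.51 in all 12 alternatives. Sorted KCs, at 6839, 14520 and 14690 CPM, already lay above the other sorted groups. KC-LCs held 22500, 29450 and 29820 CPM, also without overlap, but the difference missed the threshold (log2 1.15 ± 0.45, edgeR adjusted p = 0.084). Without KC library 1 it was 0.88 (adjusted p = 0.0525). With limma-voom and with DESeq2 the rise of Ctsb in KCs was called (DESeq2 adjusted p = 0.00629). Exons of Ctsb share 774 bases with Fdft1 on the opposite strand, and reads there cannot be assigned to a gene since the counting is not stated to use strand.

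Ctsl (ENSMUSG00000021477, chr13:64359337-64370890, minus strand), an endopeptidase of the lysosome that also processes other proenzymes, showed the largest fold change of the 10 genes in PMs and, apart from the scarcely detected Ctse, in AMs. It stood at 408, 350 and 305 CPM in sorted AMs and at 4477, 4762 and 4262 in AM-LCs, a 12.8-fold rise (log2 3.67 ± 0.16, edgeR adjusted p = 3.21e-05). Sorted PMs had 372, 297 and 361 CPM and PM-LCs 3394, 3461 and 3135, 9.70-fold higher (3.28 ± 0.18, adjusted p = 4.91e-05). The rise in KCs was smaller, from 199, 400 and 347 CPM to 886, 989 and 867 (2.84-fold, log2 1.505 ± 0.31, edgeR adjusted p = 0.00934). In all 3 populations the groups were apart. MG-LCs, at 3558, 1047 and 2222 CPM, were also above the 831, 859 and 872 CPM of sorted MG, but varied too much among themselves for a call (1.46 ± 0.50, adjusted p = 0.0522). Here MG-LC library 1, the one rich in fibroblast markers, was the highest, and without it the change was 0.99 and called (adjusted p = 0.043). The part of those markers in the level of Ctsl was not tested. Exons of Ctsl share 1742 bases with the antisense gene Gm47123 and 395 with the pseudogene Gm49230 on the same strand. Neither has a row in the count table.

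**Figure D3:**
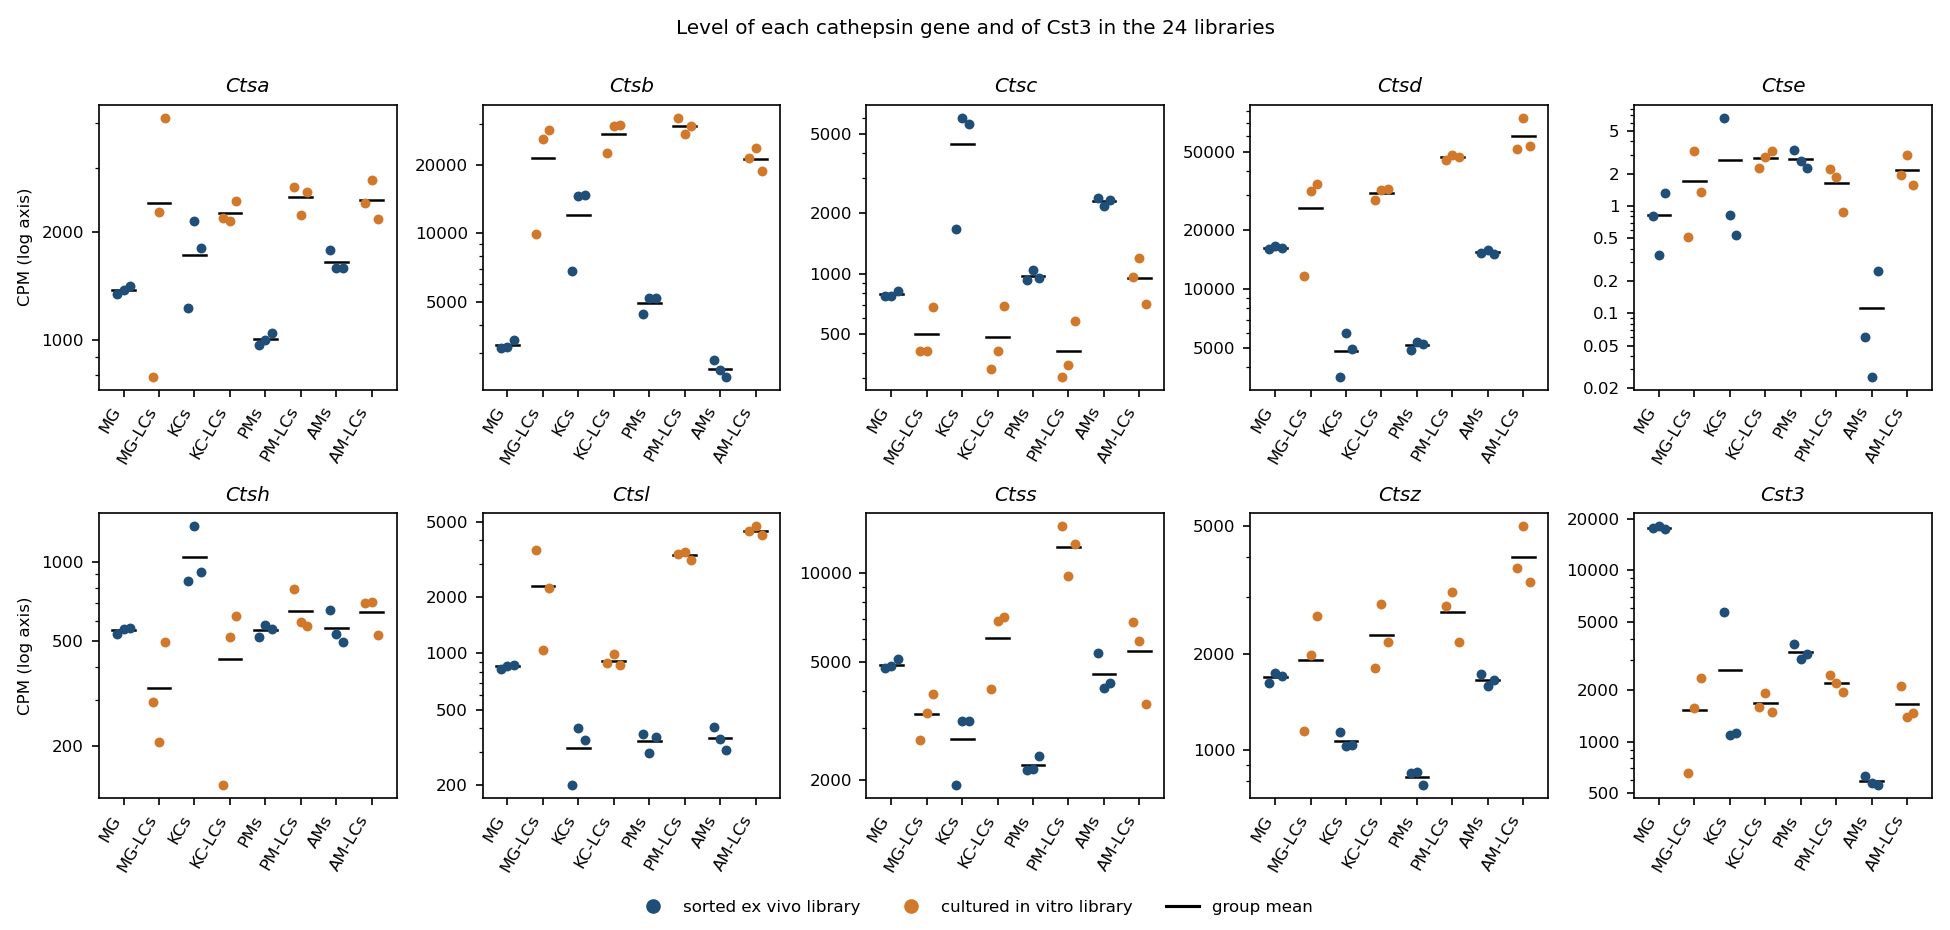
CPM of each of the 10 genes in every library on a log axis, 1 panel per gene, with sorted libraries in blue, cultured ones in orange and a black line at each group mean. Cst3 spans 557 to 18070 CPM among sorted libraries and 659 to 2436 among cultured ones, while Ctsd, Ctsb and Ctsl sit higher in the cultured groups of PMs and AMs.

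Ctss (ENSMUSG00000038642, chr3:95526786-95556403, plus strand), the cysteine protease that performs the late cut of the invariant chain in antigen-presenting cells, responded differently among populations. PM-LCs held 14450, 9780 and 12610 CPM against 2153, 2172 and 2416 in sorted PMs, and Ctss rose 5.46-fold there (log2 2.45 ± 0.20, edgeR adjusted p = 0.000217). AM-LCs, at 6867, 5920 and 3622 CPM, overlapped sorted AMs at 5361, 4098 and 4268 (log2 0.25, adjusted p = 0.394). MG-LCs had 2722, 3366 and 3916 CPM, all below the 4771, 4849 and 5121 of sorted MG, without a call (-0.51 ± 0.40, adjusted p = 0.322). In KCs the libraries were apart, going from 1917, 3171 and 3165 to 4059, 6922 and 7146 CPM, short of the threshold (1.10 ± 0.38, edgeR adjusted p = 0.0584), and without KC-LC library 1 the change was 1.35 and called (adjusted p = 0.0385). It was also called with limma-voom and with DESeq2 on all KC and KC-LC libraries. Only in PM-LCs did every library exceed the highest library of all other groups.

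Ctsz (ENSMUSG00000016256, chr2:174427493-174439039, minus strand), a carboxypeptidase that removes single residues, rose in 3 populations. AM-LCs held 3703, 5001 and 3346 CPM against 1736, 1589 and 1657 in AMs (2.43-fold, log2 1.28 ± 0.16, edgeR adjusted p = 0.000913). PM-LCs held 2812, 3108 and 2176 CPM against 849, 856 and 778 in PMs (3.25-fold, 1.70 ± 0.18, adjusted p = 0.000733). KC-LCs held 1804, 2863 and 2179 CPM against 1142, 1033 and 1042 (2.08-fold, 1.06 ± 0.29, adjusted p = 0.027). All cultured libraries exceeded the sorted ones in these pairs, but the call in KCs was lost without KC library 2 or 3 or KC-LC library 2 or 3 (adjusted p = 0.063 to 0.095). MG-LCs, at 1150, 1978 and 2617 CPM, spanned the 1628 to 1738 CPM of sorted MG (log2 0.22, adjusted p = 0.661). Ctsz shares 10 exon bases with Nelfcd on the other strand.

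Ctsc (ENSMUSG00000030560, chr7:88278085-88310888, plus strand), the dipeptidyl peptidase that activates granule serine proteases, was the one of these 9 cathepsins called lower in culture, in 3 of the 4 populations. KCs held 1665, 6024 and 5569 CPM and KC-LCs 335, 412 and 692, a 9.39-fold lower level (log2 -3.23 ± 0.57, edgeR adjusted p = 0.0055). AMs held 2400, 2176 and 2333 CPM and AM-LCs 958, 1192 and 701, 2.42-fold lower (-1.28 ± 0.18, adjusted p = 0.00138). PMs held 930, 1037 and 955 CPM and PM-LCs 305, 349 and 576, 2.37-fold lower (-1.24 ± 0.27, adjusted p = 0.013). In these 3 pairs no libraries overlapped. The call in PMs was lost without PM library 2 (adjusted p = 0.0555). KC library 1 was the lowest of the sorted KCs, and without it the change in KCs was -3.61 (adjusted p = 0.0011). In MG the levels were 770, 776 and 823 CPM ex vivo and 409, 412 and 678 in vitro, also apart but not called (-0.62 ± 0.29, adjusted p = 0.121).

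Ctsh (ENSMUSG00000032359, chr9:90054152-90076089, plus strand), an aminopeptidase that also matures surfactant protein in the lung, was not called in any population, with adjusted p (edgeR) from 0.0891 to 0.35. At an unadjusted p below 0.05 it would have counted in KCs alone, where sorted libraries held 846, 1373 and 917 CPM and cultured ones 141, 520 and 622, without overlap (log2 -1.32 ± 0.52). Sorted MG, PMs and AMs held 495 to 660 CPM and their cultures 206 to 793.

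Ctsa (ENSMUSG00000017760, chr2:164832873-164841032, plus strand), a serine carboxypeptidase that also shields the lysosomal enzymes beta-galactosidase and neuraminidase 1 from breakdown, had the closest group means of the 10 genes among the cultures. PM-LCs held 2663, 2218 and 2580 CPM against 967, 1003 and 1050 in PMs (2.47-fold, log2 1.30 ± 0.16, edgeR adjusted p = 0.00117). AM-LCs held 2401, 2786 and 2169 CPM against 1775, 1584 and 1581 in AMs (1.495-fold, 0.58 ± 0.13, adjusted p = 0.00915). In both pairs the cultured libraries were higher, although the call in AMs was lost without AM library 3 (adjusted p = 0.0504) and when all 24 libraries shared 1 model (adjusted p = 0.235). KC-LCs, at 2177, 2143 and 2428 CPM, were above KCs at 1225, 2137 and 1800 by a margin that missed the test (0.35 ± 0.30, adjusted p = 0.397). The widest group was MG-LCs, with 792, 2272 and 4143 CPM around the 1339 to 1417 of sorted MG (0.84 ± 0.60, adjusted p = 0.282), and without MG-LC library 1 the change was 1.27 (adjusted p = 0.0119). Exons of Ctsa overlap Neurl2 by 324 bases and Pltp by 495 on the opposite strand.

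Cst3 (ENSMUSG00000027447, chr2:148871722-148875692, minus strand), the cystatin C gene, moved in opposite directions. Sorted MG held 17550, 18070 and 17420 CPM, and MG-LCs 659, 1564 and 2353. The groups were far apart, and Cst3 fell 11.3-fold in MG (log2 -3.49 ± 0.72, edgeR adjusted p = 0.011). This call was lost without any 1 sorted MG library (adjusted p = 0.0585 to 0.0617), while without MG-LC library 1 the change was -3.12 (adjusted p = 0.000743). Sorted AMs were lowest, at 632, 577 and 557 CPM, and AM-LCs rose to 2127, 1394 and 1480 (2.84-fold, 1.51 ± 0.18, edgeR adjusted p = 0.000658). PM-LCs, at 2436, 2213 and 1946 CPM, lay below PMs at 3698, 3031 and 3264, a 1.52-fold fall (-0.60 ± 0.17, adjusted p = 0.0332) that missed the threshold without any 1 PM library or without PM-LC library 1 (adjusted p = 0.0517 to 0.134). In KCs the 3 sorted libraries held 5689, 1099 and 1127 CPM, and KC-LCs 1603, 1929 and 1489. The direction in KCs rested on KC library 1, the one highest in dendritic cell, B cell, neutrophil, hepatocyte and fibroblast markers. The log2 change was -0.70 with it (adjusted p = 0.437) and 0.56 without it (adjusted p = 0.102). The part of those markers' cells in its Cst3 level was not tested. In order of mean level MG stood alone at the top, then came PMs, KCs and PM-LCs, which overlapped as neighbours, then KC-LCs, AM-LCs and MG-LCs, which also overlapped, and AMs stood alone at the bottom.

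Set against its target class, cystatin C changed most in MG. The reads per kilobase of exon of the 6 cysteine cathepsins, summed and divided by those of Cst3, gave a log2 ratio of -1.32, -1.33 and -1.22 in sorted MG and of 3.30, 2.77 and 2.42 in MG-LCs, a difference of 4.12 (3.88 without MG-LC library 1). In PMs the ratio went from 0.15, 0.51 and 0.45 to 3.28, 3.06 and 3.41, a difference of 2.88. Each had an exact permutation p of 0.1, the smallest possible. Sorted MG were thus the one group in which Cst3 outweighed the 6 genes in all 3 libraries. AMs started high at 3.64, 3.48 and 3.57 and AM-LCs overlapped them at 2.86, 3.54 and 2.94 (difference -0.45, exact permutation p = 0.2), a sign that depended on the division by gene length (0.13 without it). In KCs the ratios were -0.23, 2.98 and 2.91 ex vivo and 2.69, 3.01 and 3.36 in vitro (difference 1.13, exact permutation p = 0.4), and without KC library 1 the difference was 0.08. The 4 cultures had means of 2.83 in MG-LCs, 3.02 in KC-LCs, 3.25 in PM-LCs and 3.11 in AM-LCs, whereas sorted means ran from -1.29 in MG to 3.57 in AMs.

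Per kilobase of the principal transcript, the mix of the 9 cathepsins was described as the percent each held of their summed CPM per kilobase. Ctsd made up 52.4% ± 0.96 (SD, n = 3) in MG and 51.1% ± 2.84 in AMs, but 35.3% ± 0.63 in PMs and 21.8% ± 2.33 in KCs. In culture it took 51.8% ± 7.84 in MG-LCs, 52.4% ± 3.50 in KC-LCs, 52.3% ± 3.43 in PM-LCs and 65.0% ± 4.01 in AM-LCs. So Ctsd was above 40% of the mix in every cultured library, which held for none of the sorted PM and KC libraries. Ctsb took 23.4% ± 2.59 in KCs and 4.70% ± 0.15 in MG, and 19.3% ± 2.57 in MG-LCs. Ctsc, at 15.6% ± 5.23 in KCs, was at most 1.29% in any cultured library. Ctss held between 19.3% and 24.8% on average in the 4 sorted groups, and 9.40% ± 2.89 in AM-LCs, 11.7% ± 3.50 in MG-LCs, 15.8% ± 2.67 in KC-LCs and 21.4% ± 3.34 in PM-LCs. Ctsl has principal transcripts of 1971 and 6168 bases, and the shorter one was used here.

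**Figure D4:**
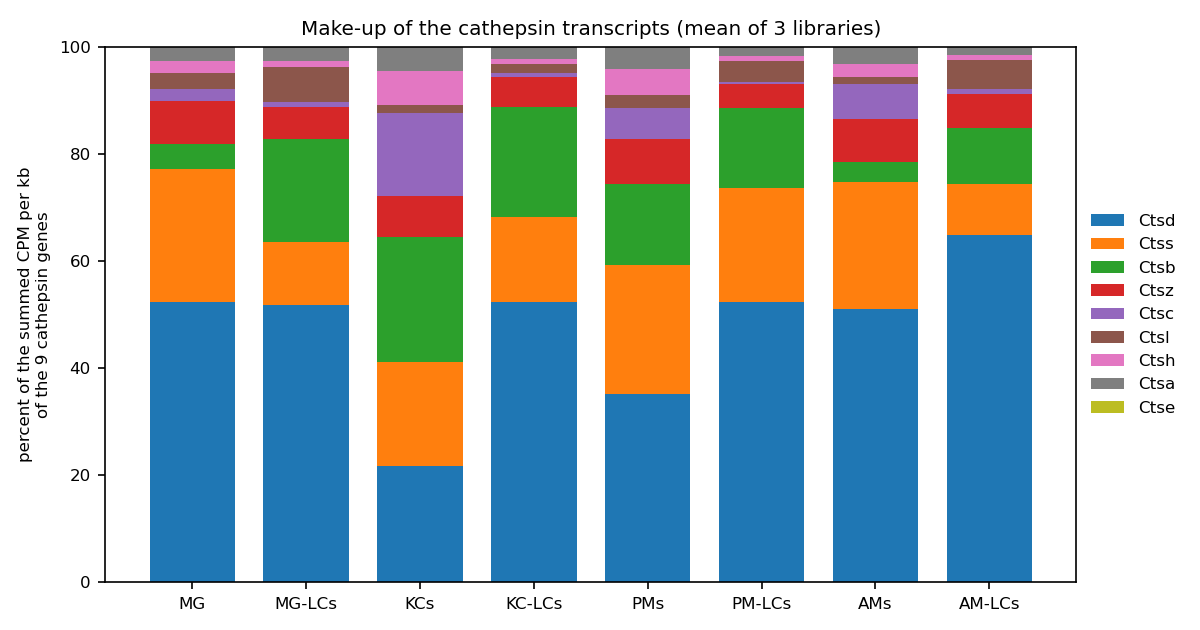
Stacked bars of the percent that each of the 9 cathepsins holds of their summed CPM per kilobase of principal transcript, as the mean of 3 libraries per group. Ctsd takes 51.8% to 65.0% of each cultured bar, and the Ctsc segment, 15.6% in KCs, is under 1% in each of the 4 cultures.

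A second comparison asked how the sorted populations differ from each other in these genes, each against the mean of the other 3. All 10 genes differed among the 4 sorted populations (edgeR, any difference), where 70.9% of 15732 genes tested did. In MG 7 of the 10 genes were called (51.4% of genes tested): Cst3 was 9.86-fold higher (log2 3.30, edgeR adjusted p = 2.26e-05), Ctsd (1.11), Ctsl (1.29), Ctss (0.64) and Ctsz (0.52) were higher, and Ctsb (-0.76) and Ctsc (-1.49) were lower. In KCs 8 were called (36.5% of genes tested). Ctsb was 3.52-fold higher there (1.81, adjusted p = 1.96e-05) and Ctsc 3.70-fold higher (1.89, adjusted p = 0.000173), Ctsh (0.93), Ctsa (0.41) and Ctse (2.10) were also higher, and Ctsd (-1.15), Ctsl (-0.56) and Ctsz (-0.28) were lower. The count in KCs was 4 without PM library 1 or without PM library 3. Without KC library 1 it was 8, with Cst3 among them and Ctse no longer, and the other counts were 8 in MG (Ctsh added), 8 in PMs (Cst3 and Ctsl added) and 9 in AMs (Ctsc, Ctsh and Ctsl added). PMs had 6 calls (35.9%), of which Ctsd (-1.02), Ctsc (-1.02), Ctss (-0.79), Ctsz (-0.78) and Ctsa (-0.62) were lower and Ctse (2.13) higher. The call for Ctsb in MG was lost without any 1 MG library, and those for Ctsc and Ctse in PMs without any 1 PM library. AMs had 6 calls (46.6%): Ctsd (1.06), Ctss (0.56) and Ctsz (0.54) were higher, Cst3 was 9.11-fold lower (-3.19, adjusted p = 0.000352), Ctsb 2.25-fold lower (-1.17, adjusted p = 0.00111), and Ctse (-3.99) lower. With 2, 1 and 10 reads in AMs, Ctse passed the filter only through other sorted populations. It could only be called lower in AMs, so its call adds nothing to that count. These 4 contrasts share libraries, since each population is among the other 3 in turn.

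Among the 4 cultures fewer of the genes were called. Ctsl and Ctss were called in the test of any difference (edgeR adjusted p = 0.0252 and 0.0304), 2 of 10 against 7.85% of the 14813 genes tested. AM-LCs had 2 calls (13.1% of genes tested), with Ctsl 2.37-fold higher (log2 1.24, adjusted p = 0.0193) and Ctsc 2.07-fold higher (1.05, adjusted p = 0.0328) than the mean of the other 3. PM-LCs had 0 calls with edgeR (0.527% of genes tested), 1 at an unadjusted p below 0.05 and 1 with limma-voom, Ctss in both cases (log2 1.33, edgeR adjusted p = 0.051). MG-LCs had 0 calls with edgeR and with limma-voom (0.56% of genes tested), and at an unadjusted p below 0.05 edgeR gave 1, Ctss (-1.13), and limma-voom 3. KC-LCs had 0 calls by either tool (0.108% of genes tested), and 1 at an unadjusted p below 0.05 by each, Ctsl (-1.84). Without MG-LC library 1, Ctsd, Ctsl and Ctss differed among the cultures, Ctsc, Ctsd, Ctsl and Ctsz were called in AM-LCs, Ctss in PM-LCs and Ctsl in KC-LCs. AM-LCs had 0 calls when any 1 AM-LC library was left out, and Ctsl alone was called there without KC-LC library 1 or 2, MG-LC library 2, or PM-LC library 1 or 2. The test of any difference gave 0 without any 1 of AM-LC library 1 or 2, KC-LC library 2 or 3, or PM-LC library 1. The ratio of the highest to the lowest group mean was 30.04 for Cst3 among sorted populations and 1.44 among cultures, 4.68 and 1.40 for Ctsb, and 5.60 and 2.32 for Ctsc. For Ctsl (2.71 and 4.92) and Ctss (2.19 and 3.68) it was wider among cultures, and for Ctsz (2.04 and 2.10) and Ctsh (1.90 and 1.96) it was close in both.

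Whether the culture effect itself differed among the 4 populations was tested in 1 model of all 24 libraries. It did for 8 of the 10 genes, against 36.3% of 17408 genes tested. The smallest values belonged to Ctss (edgeR adjusted p = 9.93e-05), Cst3 (0.000233) and Ctsl (0.000515). For Ctsh (adjusted p = 0.0648) and Ctsa (0.427) no difference among populations was detected. Without MG-LC library 1 the count was 9, with Ctsa added.

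The surrounding pathway was counted from 3 further lists. Of 14 other cathepsin genes, 3 or 4 were expressed enough to test in each population, and those rising and falling were 1 and 2 of 4 in MG, 0 and 2 of 4 in KCs, and 1 and 0 of 3 in both PMs and AMs, too few to set against the shares of all genes (25.2% rising and 21.2% falling in MG, 14.4% and 19.4% in KCs, 16.8% and 12.1% in PMs, 25.9% and 22.9% in AMs). Among the falling genes of both MG and KCs was Ctsw, singled out after its values were seen. It had at most 0.0286 CPM in MG-LCs and 0 in KC-LCs. There it passed the filter only through the sorted libraries and could only be called lower. Ctsk, the collagen-degrading protease of osteoclasts, went from 505 CPM in AMs to 908 to 7929 CPM in AM-LCs (log2 3.06 ± 0.70, edgeR adjusted p = 0.00997). It also rose in MG (from 0.672 to 29.0 CPM, adjusted p = 0.00605) and PMs (from 0.357 to 18.04 CPM, adjusted p = 0.00653, with no read in 1 sorted PM library, so that it passed the filter there through PM-LCs), while the 2.52 to 22.2 CPM of KC-LCs overlapped the 18.7 to 150 CPM of KCs (log2 -2.34, adjusted p = 0.101). AM-LCs held far more of it than the other cultures (log2 7.78, edgeR adjusted p = 0.00021). Single libraries held 11.5 to 57.6 CPM of Ctsk in MG-LCs and 13.1 to 27.1 in PM-LCs. The part of the fibroblast markers found in some cultured libraries in the level of Ctsk was not tested. Ctsf fell in KCs (-2.20, adjusted p = 0.00285) and in MG (-2.06, adjusted p = 0.0325), and Ctso was called in none of the 4, with adjusted p from 0.0737 to 0.677.

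Of 20 other cystatin and stefin genes 18 had a row, and few were expressed: 1 of 2 rose in each of MG, KCs and PMs, 4 of 4 in AMs, and none fell. These are too few to set against the shares of all genes (25.2% rising and 21.2% falling in MG, 14.4% and 19.4% in KCs, 16.8% and 12.1% in PMs, 25.9% and 22.9% in AMs). In AMs 3 of the 4 (Cst6, Cst7 and Gm5483) passed the filter only through AM-LCs and could only be called higher, so Cstb alone is informative there. Cstb, the cytosolic inhibitor cystatin B, rose in every population. Its mean level went from 29.9 to 587 CPM in MG (log2 4.34 ± 0.37, edgeR adjusted p = 0.000993), from 144 to 1034 in KCs (2.81 ± 0.34, adjusted p = 0.00154), from 86.2 to 1623 in PMs (4.23 ± 0.34, adjusted p = 0.000206) and from 385 to 1548 in AMs (2.01 ± 0.24, adjusted p = 0.000658). No cultured library overlapped the sorted ones in any of the 4 pairs. In MG the secreted inhibitor Cst3 fell and the cytosolic one rose. Cst7 and Cst6 reached at most 13.1 CPM in any library, and sorted AMs held at most 0.23 CPM of either.

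Of 15 genes for the sorting, processing and partners of cathepsins, those rising and falling were 5 and 1 in MG, 2 and 3 in KCs, 7 and 1 in PMs and 5 and 5 in AMs, beside those same shares of all genes. Psap, whose product is cut by cathepsins into the saposins, rose in PMs (log2 2.52, edgeR adjusted p = 0.000176) and AMs (0.82, adjusted p = 0.00293), with 1.07 in MG and 0.98 in KCs not called. Lgmn, the asparaginyl protease that matures several cathepsins, rose in AMs (1.84, adjusted p = 0.000132) and PMs (1.17, adjusted p = 0.0223) and fell in KCs (-1.53, adjusted p = 0.0401). Grn, the progranulin gene, rose in AMs (0.71, adjusted p = 0.00281) and was called nowhere else. The genes of the regulators named with the promoters, singled out after their values were seen, had no common direction. Tfeb rose in PMs (1.48, edgeR adjusted p = 0.00146) and fell in AMs (-0.78, adjusted p = 0.0146), as did Mitf (1.92, adjusted p = 0.0137, and -0.68, adjusted p = 0.0486), and Tfe3 fell in KCs (-0.90, adjusted p = 0.0181) and MG (-1.32, adjusted p = 0.00763).

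Across the 24 libraries the cathepsins fell into unlike patterns, given here as Pearson correlations of log2 CPM, whose points share culture state, tissue and library. Ctsd and Ctsz followed each other most closely (r = 0.945), then Ctsd and Ctsl (0.835), Ctsl and Ctsz (0.780) and Ctsd and Ctss (0.771). Ctsc ran against Ctsl (-0.599) and Ctsd (-0.561). Among 4743 genes compared, the closest to Ctsd was Atp6v1c1 (r = 0.961), a subunit of the proton pump that acidifies lysosomes, which was also next after Ctsd for Ctsz (0.940). The nearest genes to 7 others were Flvcr1 for Ctsb (0.931), Tspan31 for Ctsl (0.928), Grb2 for Ctsa (0.910), Tcf7l2 for Ctsc (0.905), Tmem230 for Ctss (0.868), Fam3a for Cst3 (0.855) and Pisd for Ctsh (0.817).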

How the data were processed

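RNA-seq was made from 24 libraries of sorted TRMs and cultured TRM-LCs. The authors deposited 1 table of raw counts per gene identifier, without normalization. The submitters' processing notes name Trimmomatic 0.36 and STAR 2.5.2b and a human build, whereas the study's methods name the mouse genome and later versions. The identifiers are mouse Ensembl, and whether counting used strand is not given in the sources used here. Symbols, coordinates and lengths came from GENCODE M21 (GRCm38), with 45143 of 45706 identifiers matched. The 10 genes, the lists and the tests were chosen with earlier results of these data known. Named are the 10 genes, the 3 most expressed genes of each list, and, of the 3 genes most correlated with each of the 10, the nearest (that of Ctse is not reported here). Genes named outside this rule are said to be.

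Genes passing filterByExpr (minimum count 10) were fitted with edgeR 4.0.16 in R 4.3.3 (TMM, quasi-likelihood, Benjamini-Hochberg adjustment over all genes tested, called below 0.05): 6 libraries per population for culture, 12 per state for tissue, 24 for the interaction. Correlations used log2 CPM with a prior count of 2. Shares and ratios used two-sided exact permutation tests. Alternatives were limma-voom (limma 3.58.1), DESeq2 1.42.0, DESeq2-type (RLE) size factors, no filter, a replicate block, 1 model of all libraries, a fold threshold (log2 1.5), and leaving out each library. Leaving out both libraries that stand apart was added after seeing the data. The fits were tested on simulated data. Replicate libraries differed beyond counting noise (chi-squared per degree of freedom 12.9 to 845), and none was a duplicate.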

Additional observations from a re-analysis of the deposited data

Results flagged for a closer look

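For 8 of the 10 genes the effect of culture differed among the 4 populations (interaction term over 24 libraries, edgeR adjusted p). The log2 changes given beside these values come from the separate fit of each population. For Ctss (9.93e-05) the log2 change in vitro over ex vivo was 2.45 in PMs, 1.10 in KCs, 0.25 in AMs and -0.51 in MG. For Cst3 (0.000233) it was 1.51 in AMs, -0.60 in PMs, -0.70 in KCs and -3.49 in MG, and the value in KCs was 0.56 without KC library 1. For Ctsl (0.000515) it was 3.67 in AMs, 3.28 in PMs, 1.505 in KCs and 1.46 in MG. For Ctsd (0.00244) it was 3.18 in PMs, 2.64 in KCs, 1.96 in AMs and 0.71 in MG. For Ctsc (0.00556) it was -3.23 in KCs, -1.28 in AMs, -1.24 in PMs and -0.62 in MG, all in the same direction. For Ctsz (0.0154) it was 1.70 in PMs, 1.28 in AMs, 1.06 in KCs and 0.22 in MG. For Ctsb (0.0233) it was 3.06 in AMs, 2.76 in MG, 2.58 in PMs and 1.15 in KCs. For Ctse (0.0268) it was 4.23 in AMs, 1.09 in MG, 0.02 in KCs and -0.74 in PMs, with at most 6.69 CPM in any library. The call for Ctse was lost without AM library 1 or 2 or AM-LC library 2, and that for Ctsb without KC library 2 or 3 or KC-LC library 1 or 2.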

How the results depend on the processing

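Of 480 alternative values for the 40 culture effects of single genes, 430 kept their direction and their side of the threshold, 21 gained a call, 22 lost one and 7 turned in sign. The cause was not tested for any change below unless the setting itself removes samples. The sign turned for Ctse in KCs with DESeq2 and with RLE factors (-0.0408 each) and with libraries left out (-0.48 to 2.00), for Ctsz in MG (-0.0666 to 0.49), for Cst3 in KCs (-1.08 to 0.56), for the read share in MG (-0.438 to 1.73 percentage points), and for the AM ratio without division by length (0.13). Genes called higher in MG numbered 1, and 2 with limma-voom, DESeq2 or 1 model of all libraries, 0 with the replicate block and 0 to 4 with libraries left out, and genes called lower numbered 3 with DESeq2 and 0 to 3. In KCs 3 were higher and 1 lower, but 5 were higher with limma-voom, DESeq2 or 1 model, and 2 lower with DESeq2 or 1 model. With the replicate block 3 were higher in KCs, Ctss in place of Ctsz. In PMs 2 were lower, but 1 without a filter, with the replicate block or in 1 model, 0 past a log2 fold of 1.5, and 0 to 2 with libraries left out, and in AMs the fold threshold left 0 of 1. Among sorted KCs 8 became 4 with the replicate block and 4 to 8 with libraries left out. In PM-LCs 0 became 1 with limma-voom, RLE factors or no filter (0 to 1 with libraries left out), KC-LCs gave 0 to 1, AM-LCs 0 to 4, and the test of any difference among cultures 1 with the replicate block and 0 to 3. No pairing by replicate number was detected: same-numbered libraries had correlations from -0.10 to 0.06 over 12 pairs. Such values cannot exclude a shared animal or day, since differences between cultures could hide it. Depth limits Ctse, with 1 to 10 reads in sorted AMs. RLE scaling moved the median change of all genes by less than 0.1.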

Other observations

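Igf2r, the gene of a receptor that carries mannose 6-phosphate tagged proenzymes to the lysosome, was singled out after its values were seen. It was nearly silent in sorted MG (0.541 to 2.05 CPM) and AMs (0.299 to 1.48 CPM), and present in KCs (28.1 to 37.0 CPM) and PMs (11.4 to 23.6 CPM). All cultures expressed it, with 108 to 225 CPM in MG-LCs, 70.4 to 134 in AM-LCs, 36.8 to 153 in PM-LCs and 44.7 to 124 in KC-LCs, and no cultured library overlapped its sorted group. The rise was called in MG (log2 7.08 ± 0.66, edgeR adjusted p = 0.00118), AMs (7.05 ± 0.59, adjusted p = 0.00018) and PMs (2.26 ± 0.54, adjusted p = 0.0199), and missed the threshold in KCs (1.22 ± 0.40, adjusted p = 0.0501). M6pr, the gene of another such receptor and also named outside the rule, held 197 to 205 CPM in sorted MG. In sorted AMs it held 374.5 to 449 CPM. Its culture effect was called in no population (edgeR adjusted p = 0.057 to 0.283).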
